A study of Mus musculus with 16 samples.

Results

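The genes described here encode the mitochondrial solute carriers of the SLC25 family. They were chosen by name and level alone: the gene symbol had to start with Slc25a and a number, and the gene had to reach 1 CPM (its count scaled to the total of the library) in at least 4 of the 16 libraries. Of 48 genes with such a symbol, 40 passed, and these 40 are among the 13234 genes that were tested. The limit was reached in all 16 libraries by 39 of them and in 12 libraries by *Slc25a47*. The remaining 8 (*Slc25a2*, *Slc25a18*, *Slc25a21*, *Slc25a31*, *Slc25a34*, *Slc25a41*, *Slc25a54* and the pseudogene *Slc25a5-ps*) reached it in 0 libraries and were not tested.

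SLC25 proteins sit in the inner mitochondrial membrane, which charged solutes cross mainly through transport proteins of this and other families. SLC25 proteins each exchange or import a small set of solutes: ADP for ATP, phosphate, citrate and malate, amino acids, nucleotides, cofactors or iron. They feed the respiratory chain and the biosynthetic pathways of the matrix and carry its products out. In kidney tubule cells this traffic serves the ATP demand of ion transport. The label of an inner membrane carrier holds for most of the 40 genes but not for all, since *Slc25a46* encodes an outer membrane protein and *Slc25a17* a peroxisomal carrier.

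The cells were mIMCD3, an established mouse line of inner medullary collecting duct epithelium, derived from an animal transgenic for SV40. All libraries came from cells grown for 10 days on permeable filters and then given either the vehicle DMSO or 2 µg/mL of the antibiotic doxycycline (DOX), for 3 or 6 days. The 4 groups are DMSO_3D, DOX_3D, DMSO_6D and DOX_6D, with 4 replicates each. All groups are the same line, in which few collecting duct markers were detected. Of 10 collecting duct markers, 3 were tested, while *Aqp2* had at most 0.391 TPM (abundance corrected for transcript length) and *Aqp4* at most 0.059 TPM in any library. Epithelial markers were abundant, with *Krt18* at 889 TPM on average in DMSO. Since one cell line was sequenced in bulk, fewer cells of a kind and less RNA per cell cannot be told apart.

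Libraries held between 16933343 and 23960860 estimated counts. By the chi-square per gene between counts of replicates, replicate 1 of DMSO_6D (15.1 to 20.2 against the others of its group) and replicate 1 of DOX_3D (17.6 to 26.0) stood apart from each of the other 3, whereas by correlation replicate 1 of DMSO_3D (0.985 to 0.989) was about as far from its group as replicate 1 of DOX_3D (0.985 to 0.989). By chi-square replicate 1 of DOX_6D (9.24 to 16.1) was also the least alike of its group, with a lower range. In DMSO_3D replicate 1 had 7.19 to 20.1. Below, the 2 libraries that stood apart by chi-square are replicate 1 of DMSO_6D and replicate 1 of DOX_3D. Calls that change when these 2 libraries are left out are given with both values. The labels do not say whether replicates were separate cultures, so a p-value measures the spread between these samples, which may be technical. Fold changes below are log2 values for DOX against DMSO from an edgeR quasi-likelihood fit to all 16 libraries. A gene is called higher or lower when its adjusted p against a 1.2-fold threshold (0.26 on the log2 scale) is under 0.05.

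To show where the promoters of called genes lie and what they hold, the 250 bases before the RefSeq start (build GRCm38.p6) are printed for 4 carriers, 5′ to 3′ on the strand of the gene. *Slc25a33* and *Slc25a48* are shown because they were called at both times, and *Slc25a28* and *Slc25a13* as a rise and a fall at 6 days, chosen after their values were seen. Capitals mark 2 motifs, the E-box CACGTG, which reads alike on both strands, and the CCAAT box, searched on both strands. The motifs do not overlap. The regions are chr4:149774268-149774517 (minus strand), chr19:43674882-43675131 (minus strand), chr13:56438105-56438354 (plus strand) and chr6:6217174-6217423 (minus strand), in the order printed.
Slc25a33: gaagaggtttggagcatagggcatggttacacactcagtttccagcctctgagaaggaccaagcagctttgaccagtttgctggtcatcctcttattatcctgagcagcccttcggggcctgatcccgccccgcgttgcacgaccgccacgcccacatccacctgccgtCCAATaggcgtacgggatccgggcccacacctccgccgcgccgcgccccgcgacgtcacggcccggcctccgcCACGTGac
Slc25a28: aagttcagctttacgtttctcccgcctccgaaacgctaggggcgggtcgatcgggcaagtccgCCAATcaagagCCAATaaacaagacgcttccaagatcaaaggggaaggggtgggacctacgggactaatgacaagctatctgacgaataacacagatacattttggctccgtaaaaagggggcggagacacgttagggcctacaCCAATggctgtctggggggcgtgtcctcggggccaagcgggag
Slc25a48: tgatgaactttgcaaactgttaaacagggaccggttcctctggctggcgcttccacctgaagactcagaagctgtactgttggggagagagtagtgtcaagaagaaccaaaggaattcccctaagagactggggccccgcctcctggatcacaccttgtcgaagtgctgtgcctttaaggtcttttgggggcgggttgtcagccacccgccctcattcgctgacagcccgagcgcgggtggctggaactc
Slc25a13: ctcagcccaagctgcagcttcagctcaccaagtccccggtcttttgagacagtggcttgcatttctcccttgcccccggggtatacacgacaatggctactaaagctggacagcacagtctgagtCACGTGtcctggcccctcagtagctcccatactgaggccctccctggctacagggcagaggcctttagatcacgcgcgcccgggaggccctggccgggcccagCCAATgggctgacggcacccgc

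In the *Slc25a33* window the E-box starts 8 bases and the CCAAT box 81 bases before the RefSeq start site. The GENCODE M21 model of this gene starts inside the window, at 149774277, so the E-box lies within that model. The *Slc25a28* window has 3 CCAAT boxes, at 187, 176 and 43 bases. In *Slc25a13* the E-box is at 125 bases and the CCAAT box at 22, and the *Slc25a48* window has neither motif. RefSeq windows of 300 bases (250 before and 50 after the start) were found for 31 of the 40 carriers. These 31 genes have 40 windows, since some have more than 1 start, and windows of 1 gene can overlap. The CCAAT box was in 20 of the 40 windows (50%), of 17 genes, against 37.4% of all 32851 windows and 38% of the windows of tested genes. The E-box was in 7 windows (17.5%), of *Slc25a1*, *Slc25a13*, *Slc25a14*, *Slc25a15*, *Slc25a33* and *Slc25a36*, against 7.15% of all windows and 9.9% of those of tested genes. The cyclic AMP response element TGACGTCA was in 2 (*Slc25a25* and *Slc25a36*), against 1.79% of all windows and 3.07% of those of tested genes. The ETS core CCGGAAGT was in 1 window, of *Slc25a20*, against 3.89% and 8.2%. The NRF1 core CGCATGCG (1.87% and 3.86%) and the amino acid response element TGATGNAA (3.97% and 2.17%) were in 0 of the 40. These are matches of letters in fixed windows, and binding was not measured.

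The adenine nucleotide and phosphate carriers made up most of the family's RNA. In the 8 libraries of DMSO-treated cells the 40 carriers summed to 1747 TPM ± 58.9 (SD, n = 8), and the 6 genes of the ATP and phosphate group held 61.0% of it. *Slc25a3*, the phosphate carrier, had 543 TPM ± 8.24 (SD, n = 8). *Slc25a5* and *Slc25a4*, the main ADP/ATP exchangers, had 239.9 TPM ± 14.0 and 188 TPM ± 12.3 (SD, n = 8). These 3 genes together held 55.6% of the family's TPM.

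Next in order came *Slc25a39*, a glutathione carrier, at 126 TPM ± 7.19 and *Slc25a1*, which exports citrate, at 83.6 TPM ± 3.57 (SD, n = 8). The 5 highest genes did not overlap with one another over the 8 libraries, and neither did *Slc25a1* and the next gene, *Slc25a24*. Farther down the order was less certain. For 32 of the 39 pairs of neighbours in the order of mean TPM, the ranges over the DMSO libraries overlapped. In all, 4 carriers had at least 100 TPM, 22 had between 10 and 100 TPM and 14 had less than 10 TPM, down to *Slc25a35* at 1.36 TPM ± 0.267 (SD, n = 8). The coefficient of variation across the DMSO libraries had a median of 10.9% and ran from 1.52% for *Slc25a3* to 31.0% for *Slc25a53*.

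**Figure D1:**
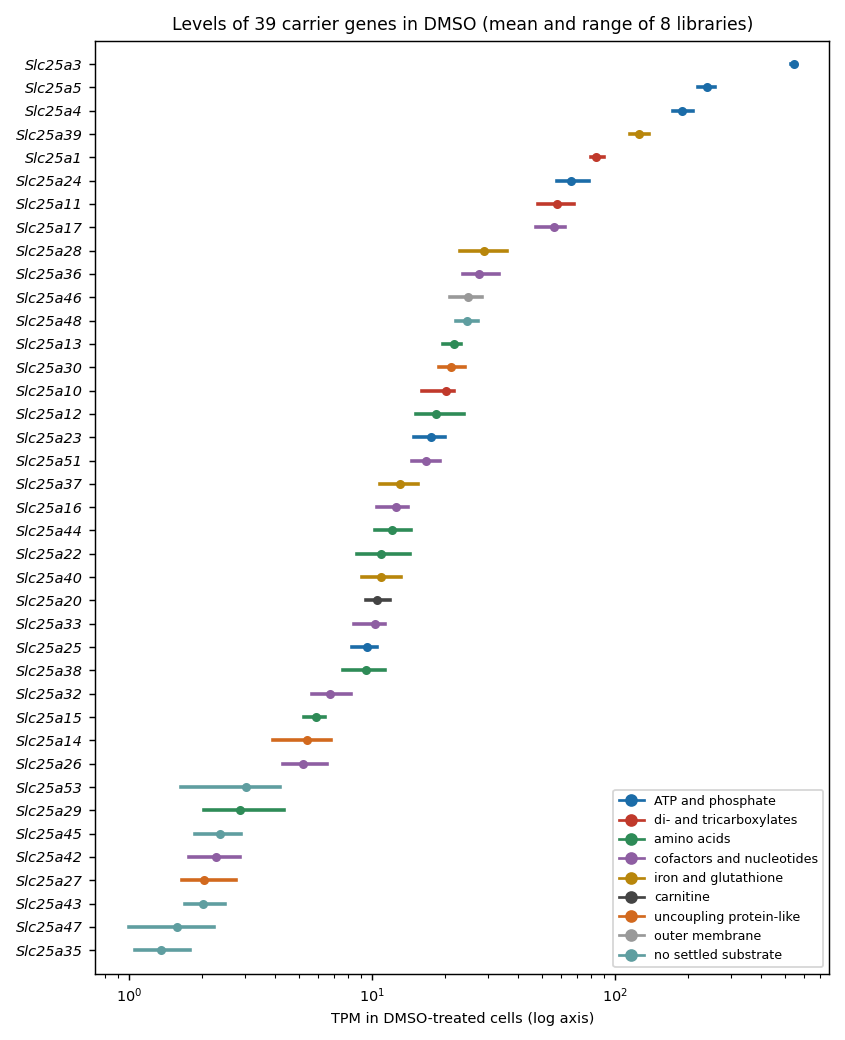
TPM of 39 carrier genes in DMSO-treated cells on a log axis, with the mean (point) and the range (line) of 8 libraries, coloured by role. *Slc25a3* stands highest at 543 TPM and *Slc25a35* lowest at 1.36 TPM.

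Time in vehicle alone moved none of the carriers past the threshold. Between DMSO at 6 and 3 days, 0 of 40 were called by edgeR, 0 had an unadjusted p under 0.05 against the threshold, and DESeq2 and limma also called 0. Against the threshold the share over all tested genes was 0% (172 genes had an unadjusted p under 0.05). Without the threshold 1 carrier had an unadjusted p under 0.05 and 0 were called (lowest adjusted p = 0.0862, edgeR). In that setting 62 of 13234 tested genes were called.

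DOX changed a minority of the carriers. At 3 days 2 of 40 were called higher (*Slc25a33* and *Slc25a5*) against 5.3% of all tested genes, and 2 were called lower (*Slc25a48* and *Slc25a23*) against 7.22%. At 6 days 5 were called higher (*Slc25a27*, *Slc25a33*, *Slc25a28*, *Slc25a22* and *Slc25a37*) against 10% of all tested genes, and 4 lower (*Slc25a48*, *Slc25a10*, *Slc25a24* and *Slc25a13*) against 11.6%. In both directions together these are 10.0% and 22.5% of the carriers, beside 12.5% and 21.6% of all tested genes, so the share of carriers called was near the background at both times. *Slc25a33* was called higher at both times, as were 3.37% of all tested genes. *Slc25a48* was called lower at both times, as were 5.36%.

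The sizes of the changes can be set beside those of other genes. The median absolute log2 fold change was 0.19 over the carriers and 0.21 over all tested genes at 3 days, and 0.16 against 0.23 at 6 days. The CPM of the 4 DOX-treated and the 4 DMSO-treated libraries did not overlap for 14 of 40 carriers at 3 days (35.0%) and again for 14 at 6 days (35.0%). Over all tested genes these shares were 38.6% and 43%. The other 29 carriers were called at neither time, with log2 fold changes from -0.30 to 0.43 at 3 days and from -0.44 to 0.42 at 6 days. For 8 of the 29 at 3 days and 13 at 6 days, the 95% interval lay wholly inside the 1.2-fold threshold. The sum of TPM over the family was 1707 ± 56.0 in DMSO and 1694 ± 29.7 in DOX at 3 days, and 1788 ± 22.6 and 1823 ± 36.8 at 6 days (SD, n = 4 each).

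**Figure D2:**
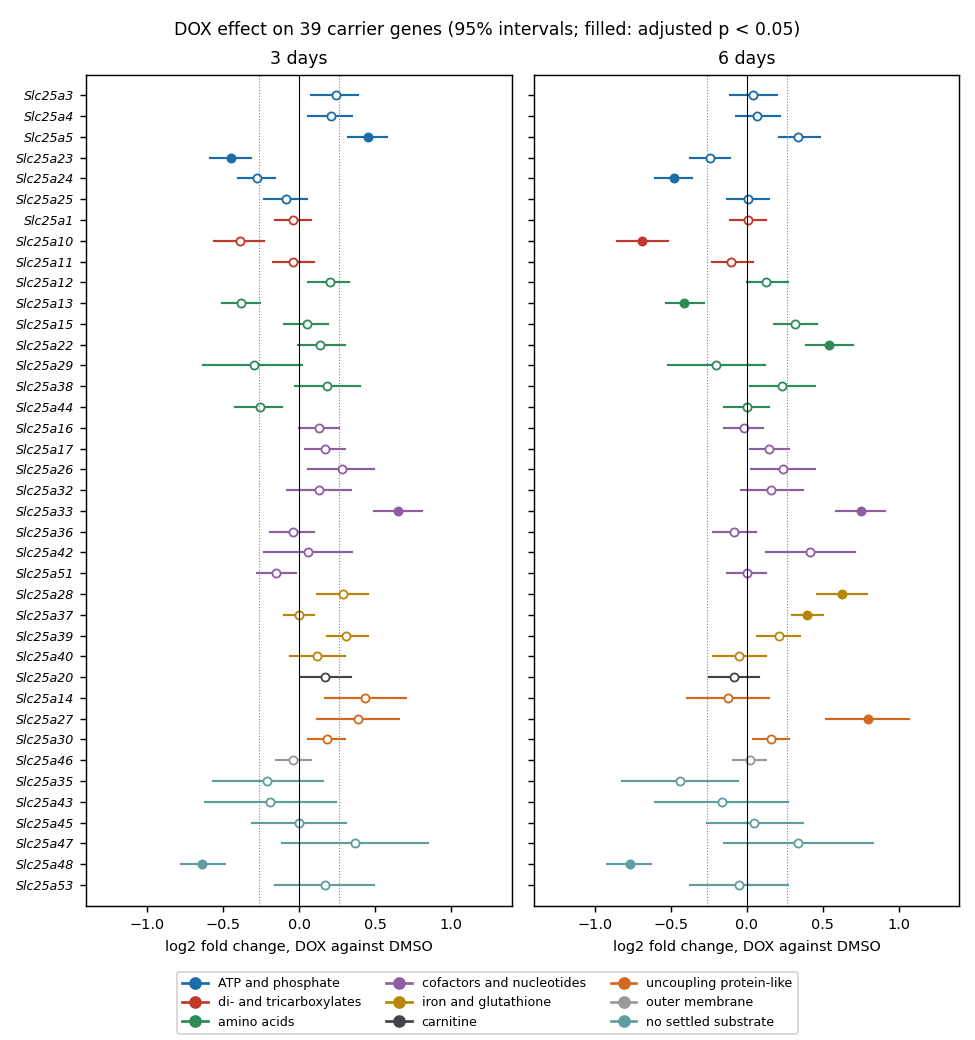
Log2 fold change of DOX against DMSO for 39 carriers at 3 days (left) and 6 days (right), ordered and coloured by role, with 95% intervals. Filled points are called genes (4 at 3 days, 9 at 6 days), and dotted lines mark the 1.2-fold threshold.

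The values and calls differed with another unit and another method. Unit and method were changed together here, so their parts in the lost calls cannot be told apart. With limma on log2(TPM + 1), which divides by transcript length and by the sum over all transcripts, the median over all genes was shifted by -0.15 at 3 days and -0.05 at 6 days. Of the genes called at 3 days 11.9% were then higher, against 42.3% on counts, and at 6 days 29.6% against 46.4%. On that scale 0 carriers were called higher and 3 lower at 3 days (*Slc25a48*, *Slc25a10* and *Slc25a13*), and 1 higher and 2 lower at 6 days (*Slc25a33*, *Slc25a48* and *Slc25a10*). Of the 13180 genes tested there, 80 were called higher and 593 lower at 3 days, and 375 higher and 891 lower at 6 days. Relative to the median of all genes at 3 days, *Slc25a33* was at 0.57 (limma adjusted p = 0.187, before the median is taken off) and *Slc25a5* at 0.41. Neither was called on that scale. The carriers called lower there were at -0.63 (*Slc25a48*), -0.42 (*Slc25a10*) and -0.35 (*Slc25a13*). These relative values were not tested.

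Among the ATP and phosphate carriers, *Slc25a5* was called higher at 3 days. The calcium-regulated ATP-Mg/phosphate carriers *Slc25a23* and *Slc25a24* were each called lower at 1 time. For both, the DOX-treated libraries lay below the DMSO-treated ones at 3 and at 6 days. In this group of 6, 1 was called higher and 1 lower at 3 days, and 0 higher and 1 lower at 6 days, with median log2 fold changes of 0.06 and 0.03. Over all tested genes 5.3% were called higher and 7.22% lower at 3 days, and 10% and 11.6% at 6 days. The role groups are small, and their counts here and below are a description beside these shares. *Slc25a3* (0.24 at 3 days, 0.04 at 6 days), *Slc25a4* (0.21 and 0.07) and *Slc25a25* (-0.09 and 0.01) were not called.

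*Slc25a5* (ENSMUSG00000016319, chrX:36795651-36798807, plus strand) encodes the ADP/ATP exchanger of dividing cells. At 3 days its 4 DMSO-treated libraries had 221, 210.2, 211 and 194 CPM and its DOX-treated libraries 257, 296, 292 and 296 CPM. At 6 days DMSO gave 224, 233, 203 and 218 CPM and DOX 302, 281, 274 and 257 CPM. Every DOX-treated library was above every DMSO-treated one at both times, and replicate 1 was the lowest of the DOX_3D libraries. The log2 fold change was 0.45 ± 0.06 (SE; adjusted p = 0.0101, edgeR) at 3 days and 0.34 ± 0.06 (adjusted p = 0.132) at 6 days, so that only the first was called. These effects did not differ detectably from each other (difference -0.11 ± 0.09, adjusted p = 0.446). The close paralog *Slc25a4* and the pseudogene *Slc25a5-ps* share sequence with *Slc25a5*, and the pseudogene had at most 1.00 estimated count in any library.

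*Slc25a23* (ENSMUSG00000046329, chr17:57043711-57059863, minus strand) had 37.6, 38.2, 37.0 and 39.4 CPM in DMSO and 30.8, 27.6, 25.6 and 27.1 CPM in DOX at 3 days. At 6 days the values were 35.1, 35.5, 34.0 and 34.7 CPM in DMSO and 26.3, 31.3, 29.1 and 31.2 CPM in DOX. All DOX-treated libraries were below all DMSO-treated ones at both times. It fell by 0.45 ± 0.06 on the log2 scale at 3 days (adjusted p = 0.00993, edgeR) and was at -0.24 ± 0.06 at 6 days (adjusted p = 0.758). With DESeq2 the adjusted p at 3 days was 0.0877, which ends the call. The gene overlaps the protein-coding gene *Crb3*, so part of its reads could belong to that gene.

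*Slc25a24* (ENSMUSG00000040322, chr3:109123149-109168457, plus strand) was the most abundant of the calcium-regulated carriers, at 66.2 TPM ± 6.46 in DMSO (SD, n = 8). Its CPM at 3 days was 183, 187, 182 and 179 in DMSO and 157, 152, 149 and 145 in DOX. At 6 days it was 163, 193, 189 and 207 in DMSO and 134, 134, 133 and 136 in DOX. The DOX-treated libraries were lower throughout, and at 6 days they lay between 133 and 136 CPM while the DMSO-treated ones spread from 163 to 207 CPM. The log2 fold change was -0.28 ± 0.06 at 3 days (adjusted p = 0.549) and -0.48 ± 0.06 at 6 days (adjusted p = 0.000938, edgeR).

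Of the 3 carriers of di- and tricarboxylates, 0 were called at 3 days and 1 fell at 6 days. That gene was *Slc25a10* (ENSMUSG00000025792, chr11:120491840-120499187, plus strand), the dicarboxylate carrier that exchanges malate or succinate for phosphate. Its CPM at 3 days was 27.3, 29.4, 27.8 and 30.1 in DMSO and 18.03, 23.3, 21.7 and 24.4 in DOX, and at 6 days 29.4, 31.6, 30.0 and 28.7 in DMSO and 16.9, 19.5, 17.9 and 20.0 in DOX. The groups did not overlap at either time, and the gap was wider at 6 days. It was at -0.39 ± 0.08 at 3 days (adjusted p = 0.103) and fell by 0.69 ± 0.08 at 6 days (adjusted p = 3.63e-05, edgeR), and the difference between the times, -0.29 ± 0.11, was not called (adjusted p = 0.0763). Without the 2 libraries that stood apart by chi-square, that difference was called (adjusted p = 0.00473). The citrate carrier *Slc25a1* (-0.04 and 0.01) and the oxoglutarate carrier *Slc25a11* (-0.04 and -0.10) were not called at 3 or 6 days.

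The 7 amino acid carriers moved in different directions, with 0 called at 3 days and 1 higher and 1 lower at 6 days. *Slc25a13* (ENSMUSG00000015112, chr6:6041218-6217173, minus strand) encodes citrin, an aspartate-glutamate exchanger of the malate-aspartate shuttle. At 3 days it had 51.7, 53.2, 51.9 and 48.0 CPM in DMSO and 36.0, 39.4, 38.9 and 42.6 CPM in DOX. After 6 days the values were 46.6, 49.2, 51.9 and 50.8 CPM in DMSO and 36.6, 36.8, 37.4 and 38.9 CPM in DOX. Every DOX-treated library was below every DMSO-treated library at both times. The log2 fold change was nearly the same at both, -0.38 ± 0.06 at 3 days (adjusted p = 0.0522) and -0.41 ± 0.06 at 6 days (adjusted p = 0.0159, edgeR), on either side of the limit. The call at 6 days was lost with DESeq2 (adjusted p = 0.0954) and under 5 other alternatives.

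*Slc25a22* (ENSMUSG00000019082, chr7:141429744-141437892, minus strand) encodes a glutamate carrier. It had 17.8, 19.0, 18.9 and 22.3 CPM in DMSO and 21.6, 21.7, 23.2 and 19.8 CPM in DOX at 3 days, when the groups overlapped. At 6 days it had 18.7, 17.99, 16.9 and 18.6 CPM in DMSO and 24.2, 27.1, 27.4 and 26.4 CPM in DOX, and all DOX-treated libraries were higher. The log2 fold change was 0.14 ± 0.08 at 3 days (adjusted p = 1) and 0.54 ± 0.07 at 6 days (adjusted p = 0.000994, edgeR). The difference between the times was 0.40 ± 0.11 (adjusted p = 0.0144). The other glutamate carrier gene, *Slc25a18*, reached at most 1 count in a library. The other aspartate-glutamate exchanger *Slc25a12* (0.20 and 0.13), the ornithine carrier *Slc25a15* (0.05 and 0.32), the glycine carrier *Slc25a38* (0.18 and 0.23) and the branched-chain amino acid carrier *Slc25a44* (-0.26 and 0.00) were not called at 3 or 6 days.

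Among the 9 carriers of cofactors and nucleotides, *Slc25a33* was called at each time and 8 genes at neither. *Slc25a33* (ENSMUSG00000028982, chr4:149744036-149774277, minus strand) encodes a pyrimidine nucleotide carrier, and its promoter window, printed above, holds both motifs, as does that of *Slc25a13*. At 3 days it had 13.9, 15.7, 13.8 and 13.6 CPM in DMSO and 19.7, 24.5, 21.6 and 23.8 CPM in DOX. The 6-day values were 16.4, 16.7, 15.5 and 14.6 CPM in DMSO and 26.6, 25.3, 28.1 and 26.1 CPM in DOX. The DOX-treated libraries were above all DMSO-treated ones at both times. It rose by 0.65 ± 0.08 at 3 days (adjusted p = 0.00018) and 0.75 ± 0.08 at 6 days (adjusted p = 4e-06, edgeR), and the difference between the times was not called (0.10 ± 0.11, adjusted p = 0.563). The related pyrimidine nucleotide carrier *Slc25a36* was at -0.04 and -0.08. The remaining 7 genes, among them the carriers of S-adenosylmethionine (*Slc25a26*), folate (*Slc25a32*), coenzyme A (*Slc25a42*) and NAD (*Slc25a51*), had log2 fold changes from -0.15 to 0.28 at 3 days and from -0.02 to 0.42 at 6 days.

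Both mitoferrins, which import iron for heme and iron-sulfur clusters, rose at 6 days. In the group of 4 for iron and glutathione 0 were called at 3 days and 2 were called higher at 6 days, against 10% of all tested genes. *Slc25a28* (ENSMUSG00000040414, chr19:43663801-43674881, minus strand), the widely expressed mitoferrin, had 35.4, 38.8, 41.9 and 40.9 CPM in DMSO and 49.4, 49.0, 49.1 and 44.0 CPM in DOX at 3 days. By 6 days there were 46.8, 38.1, 41.0 and 35.4 CPM in DMSO and 57.5, 59.0, 64.8 and 67.3 CPM in DOX. The groups did not overlap at either time. The log2 fold change was 0.29 ± 0.08 at 3 days (adjusted p = 0.53) and 0.63 ± 0.08 at 6 days (adjusted p = 0.000152, edgeR), with a difference of 0.34 ± 0.11 (adjusted p = 0.0403). The call of the difference was lost under 15 of 28 alternatives, the replicate block among them (adjusted p = 0.0645).

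*Slc25a37* (ENSMUSG00000034248, chr14:69241848-69285112, minus strand), the mitoferrin best known from red cell precursors, had 63.3, 62.1, 62.3 and 64.7 CPM in DMSO and 64.2, 63.4, 61.9 and 62.8 CPM in DOX at 3 days. These groups overlapped, and each had a mean of 63.1 CPM with an SD of at most 1.21 (n = 4 each). At 6 days it had 60.2, 54.6, 53.0 and 54.9 CPM in DMSO and 73.2, 74.5, 72.2 and 74.1 CPM in DOX, and all DOX-treated libraries were higher. The log2 fold change was 0.00 ± 0.05 at 3 days and 0.40 ± 0.05 at 6 days (adjusted p = 0.00749, edgeR). The difference between the times was 0.40 ± 0.07 (adjusted p = 0.00116). The DMSO-treated libraries had a mean of 55.7 CPM at 6 days against 63.1 CPM at 3 days (-0.18 ± 0.05 on the log2 scale, adjusted p = 1). The gene overlaps 4 non-coding genes. The glutathione carriers *Slc25a39* (0.31 and 0.21) and *Slc25a40* (0.12 and -0.05) were not called at 3 or 6 days. Without the 2 libraries that stood apart by chi-square, *Slc25a39* was called higher at 3 days (adjusted p = 0.0498, against 0.329 with all libraries).

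The 3 relatives of the uncoupling proteins were weakly expressed apart from *Slc25a30* (21.2 TPM ± 2.02 in DMSO, SD, n = 8), and 1 rose at 6 days. *Slc25a27* (ENSMUSG00000023912, chr17:43641891-43667214, minus strand) had 4.23, 3.80, 5.38 and 3.91 CPM in DMSO and 4.66, 5.68, 5.21 and 7.05 CPM in DOX at 3 days, with overlap. The libraries of 6 days had 3.69, 3.36, 3.85 and 3.56 CPM in DMSO and 6.38, 6.49, 5.89 and 6.38 CPM in DOX, without overlap. Its log2 fold change was 0.39 ± 0.13 at 3 days (adjusted p = 0.267) and 0.80 ± 0.13 at 6 days (adjusted p = 0.000595, edgeR), the largest log2 fold change among the carriers at 6 days. The values rest on few reads, between 66 and 158 estimated counts per library. *Slc25a14* (ENSMUSG00000031105, chrX:48623413-48662294, plus strand) had 4.53, 4.68, 6.18 and 4.95 CPM in DMSO and 6.16, 6.28, 6.83 and 8.19 CPM in DOX at 3 days, and 4.87, 6.21, 5.47 and 5.03 CPM in DMSO and 5.43, 5.63, 4.43 and 4.42 CPM in DOX at 6 days. The groups overlapped at both times, narrowly at 3 days. It was called at neither time (0.43 ± 0.13, adjusted p = 0.169, and -0.12 ± 0.13, adjusted p = 1), but its DOX effects differed between the times by -0.55 ± 0.18 (adjusted p = 0.0433, edgeR), a call that was lost under 16 of 28 alternatives.

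The label of no settled substrate was given by default to the 6 carriers not listed for another role, without a check of each gene. Among these 6, *Slc25a48* fell at both times and 5 were called at neither. *Slc25a48* (ENSMUSG00000021509, chr13:56438355-56474239, plus strand) was the most abundant of them, at 24.6 TPM ± 1.53 in DMSO (SD, n = 8). At 3 days it had 69.8, 73.4, 66.0 and 70.7 CPM in DMSO and 50.5, 42.8, 44.1 and 42.6 CPM in DOX. For 6 days the values were 66.3, 68.8, 68.7 and 63.3 CPM in DMSO and 35.1, 41.5, 36.8 and 43.0 CPM in DOX. Every DOX-treated library was well below every DMSO-treated one at both times. It fell by 0.64 ± 0.07 at 3 days (adjusted p = 6.67e-05) and by 0.77 ± 0.07 at 6 days (adjusted p = 6.58e-07, edgeR), and the difference between the times was not called (-0.13 ± 0.10, adjusted p = 0.362). The call held under every alternative tried at both times. The carnitine-acylcarnitine carrier *Slc25a20* (0.17 and -0.08) and the outer membrane protein gene *Slc25a46* (-0.04 and 0.02) were not called at 3 or 6 days.

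**Figure D3:**
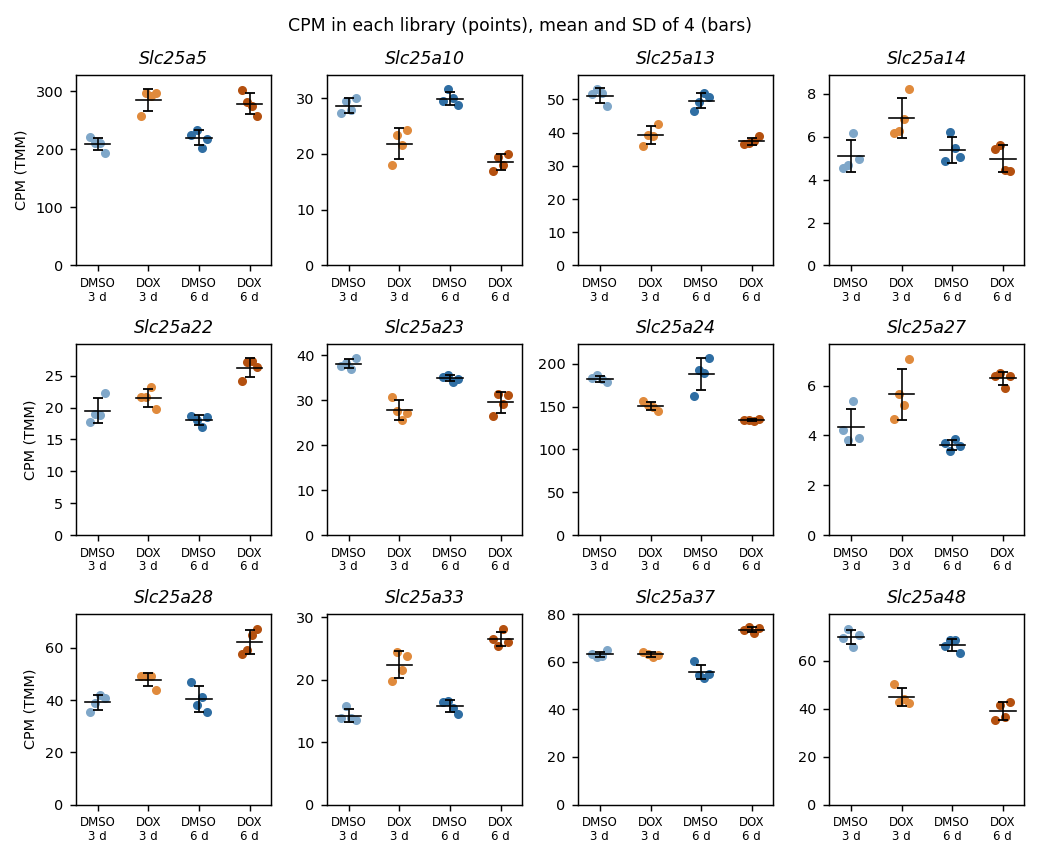
CPM of the 12 carriers called in any DOX comparison in each of the 16 libraries (points, in order of replicate number), with the mean and SD of 4 libraries as bars; each vertical axis starts at 0. *Slc25a48* and *Slc25a33* separate at both times, while *Slc25a37* separates at 6 days alone.

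DOX effects differed between the times for 4 carriers, by the test of the difference itself. *Slc25a37*, *Slc25a22* and *Slc25a28* had a higher DOX effect at 6 than at 3 days, 3 of 40 carriers against 7.44% of all tested genes, and *Slc25a14* a lower one, 1 of 40 against 9.58%. With both directions this is 10.0% of the carriers, beside 2252 of the 13234 tested genes. The count fell to 2 without any 1 of 8 libraries. It rose to 8 without replicate 1 of DOX_3D, when 3787 of all tested genes were called. Without the 2 libraries that stood apart by chi-square, when 4385 of all tested genes were called, it was 9. The 5 added were *Slc25a10*, *Slc25a24* (adjusted p = 0.00311, against 0.0868 with all libraries), *Slc25a23* (0.0207 against 0.109), *Slc25a40* (0.038 against 0.358) and *Slc25a3* (0.0461 against 0.206).

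**Figure D4:**
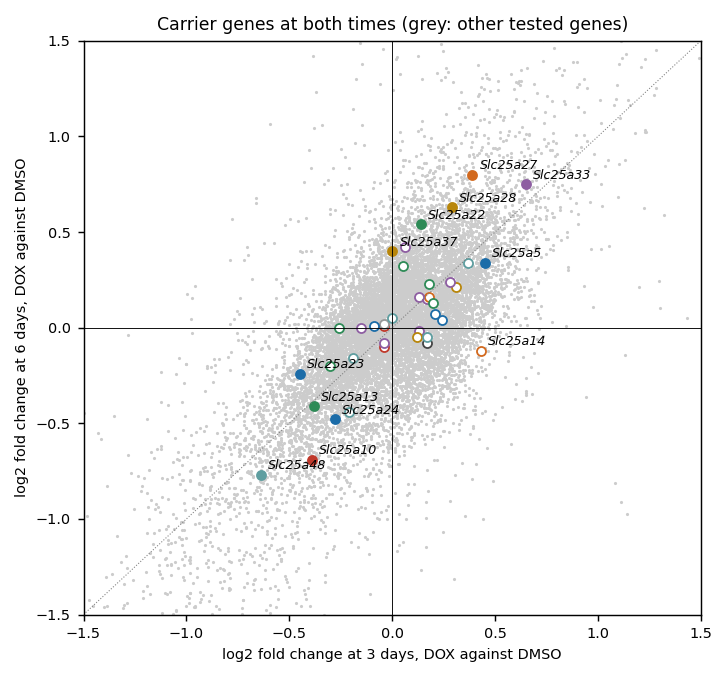
Log2 fold change at 6 days against that at 3 days for 39 carriers (coloured by role as in the plot of levels, filled where called at either time) and for all other tested genes (grey), within ± 1.5. The dotted line marks equal change, and *Slc25a14* lies farthest below it among the carriers.

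For 4 of 7 pairs of paralogs with the same substrate, the ratio of their TPM differed between DOX-treated and DMSO-treated libraries without overlap at both times. Each of these 4 pairs holds a gene whose CPM alone did not overlap at either time (*Slc25a5*, *Slc25a33*, *Slc25a28* and *Slc25a24*). Over all tested genes, the CPM of 38.6% at 3 days and 43% at 6 days did not overlap. No share over other pairs of genes was taken. The ratios within a library are a description without a test, and library scaling cancels in them. *Slc25a4* to *Slc25a5* was 0.779 ± 0.0187 in DMSO and 0.658 ± 0.0256 in DOX at 3 days, and 0.793 ± 0.0360 and 0.658 ± 0.0123 at 6 days (SD, n = 4 each). All DOX-treated libraries were below all DMSO-treated ones at both times. *Slc25a33* to *Slc25a36* went the other way, from 0.359 ± 0.0390 to 0.571 ± 0.0810 at 3 days and from 0.393 ± 0.0680 to 0.733 ± 0.122 at 6 days, again without overlap at 6 days and at 3 days.

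*Slc25a37* to *Slc25a28* was lower in DOX at both times without overlap (0.501 ± 0.0254 against 0.411 ± 0.0259, then 0.408 ± 0.0312 against 0.362 ± 0.0218, SD, n = 4 each). In vehicle alone this ratio was also lower at 6 days (0.388 to 0.455) than at 3 days (0.465 to 0.523) without overlap. *Slc25a24* to *Slc25a25* was lower in DOX without overlap at both times (6.87 ± 0.152 against 5.72 ± 0.760, then 6.97 ± 1.18 against 4.94 ± 0.113). *Slc25a12* to *Slc25a13* rose from 0.794 ± 0.0307 to 1.25 ± 0.106 at 3 days without overlap. At 6 days it was 0.899 ± 0.166 and 1.22 ± 0.107, and replicate 1 of DMSO_6D, at 1.14, reached into the DOX range. *Slc25a39* to *Slc25a40* and *Slc25a24* to *Slc25a23* were higher in DOX without overlap at 3 days and overlapped at 6 days.

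**Figure D5:**
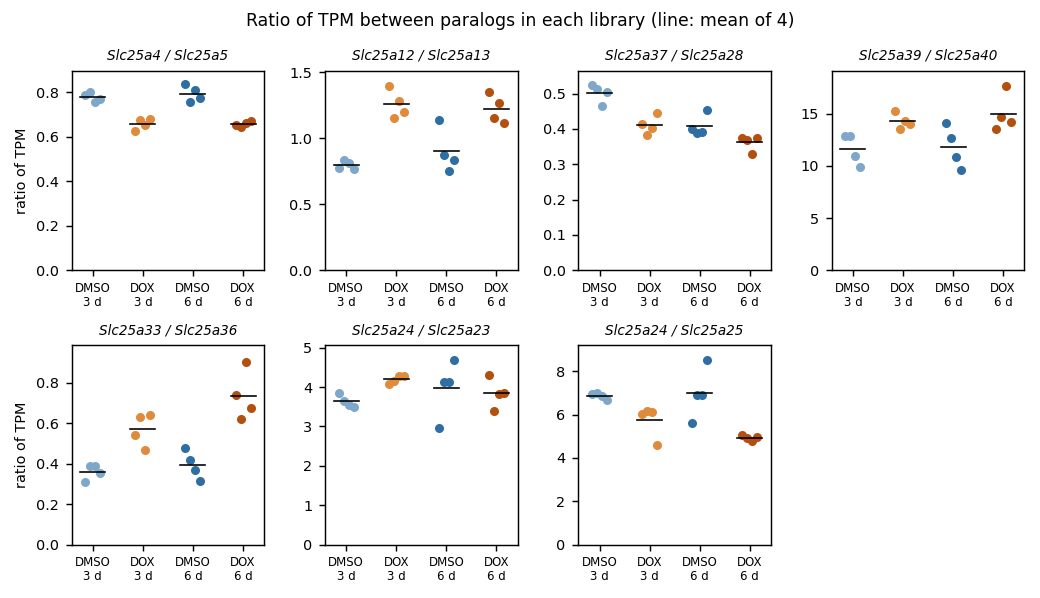
Ratio of TPM between carriers with the same substrate in each library (points) with the mean of 4 libraries (line); each vertical axis starts at 0. The *Slc25a4* to *Slc25a5* ratio is lower in DOX at both times and the *Slc25a33* to *Slc25a36* ratio higher.

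Some carriers lie side by side in the genome (GENCODE M21, GRCm38). *Slc25a29* and *Slc25a47* on chromosome 12 are divergent, with 162 bases between them, and were both low, at 2.87 TPM ± 0.746 and 1.59 TPM ± 0.461 in DMSO (SD, n = 8). Neither was called (-0.30 and -0.20 for *Slc25a29*, 0.37 and 0.34 for *Slc25a47*). *Slc25a23* lies 2056 bases from *Slc25a41* and *Slc25a24* 6461 bases from *Slc25a54*, and in each pair the second gene did not reach 1 CPM. *Slc25a43* lies 18448 bases from *Slc25a5* and was not called (-0.19 and -0.16).

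The symbol rule leaves out family members with other names, of which 3 of 5 were tested. *Ucp2*, the uncoupling protein of many non-muscle tissues, had 97.3 TPM in DMSO, and it fell by 0.45 ± 0.06 at 3 days (adjusted p = 0.00476) and by 0.67 ± 0.06 at 6 days (adjusted p = 8.74e-07, edgeR). *Mtch1* and *Mtch2*, outer membrane relatives, were not called at 3 or 6 days, but the DOX effects on *Mtch2* (0.22 and -0.11) differed between the times by -0.33 (adjusted p = 0.0114). *Ucp1* and *Ucp3* were at most 0.045 and 0.109 TPM in any library.

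The other genes of mitochondrial solute transport were mostly not called. Of 24 symbols (25 gene identifiers, since *Nnt* has 2), 1 was called higher and 0 lower at 3 days, and 2 higher and 2 lower at 6 days. These are 4% and 16% of the identifiers, beside 12.5% and 21.6% of all tested genes. *Ghitm*, an inner membrane protein of calcium and proton exchange, rose by 0.86 ± 0.06 at 3 days (adjusted p = 1.85e-08) and 0.82 ± 0.06 at 6 days (adjusted p = 1.47e-08, edgeR). *Sfxn2*, a sideroflexin, rose by 0.46 ± 0.08 at 6 days (adjusted p = 0.0181). A pair of genes of the calcium uniporter fell at 6 days, *Mcub* by 0.71 ± 0.10 (adjusted p = 0.000274) and *Smdt1* by 0.44 ± 0.08 (adjusted p = 0.0277). The median log2 fold change of the list was 0.08 at 3 days and 0.07 at 6 days, against 0.00 over all tested genes at both times.

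Among 20 enzymes that work with the carriers, 2 were called higher and 0 lower at 3 days, and 2 higher and 2 lower at 6 days, which is 10% and 20% of the list beside 12.5% and 21.6% of all tested genes. The aspartate aminotransferase of the cytosol, *Got1*, rose by 0.58 ± 0.05 at 3 days (adjusted p = 3.02e-05) and 0.47 ± 0.05 at 6 days (adjusted p = 0.000873, edgeR), and its mitochondrial partner *Got2* by 0.37 ± 0.05 at 6 days (adjusted p = 0.0208). The malate dehydrogenase of the cytosol, *Mdh1*, fell by 0.38 ± 0.06 (adjusted p = 0.042) and the malic enzyme gene *Me1* by 0.41 ± 0.06 (adjusted p = 0.0129) at 6 days. *Cpt1b*, at 1.5 TPM in DMSO, rose by 0.97 ± 0.19 at 3 days (adjusted p = 0.00308) and was not called at 6 days (0.41 ± 0.18, adjusted p = 0.289, edgeR). The more abundant *Cpt1a* (8.71 TPM) and *Cpt1c* (17.4 TPM) were at -0.14 and 0.03 at 3 days and were not called. The genes around the malate-aspartate shuttle did not share a direction: at 6 days *Got1* and *Got2* were higher and *Slc25a13* and *Mdh1* lower.

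Markers of the cell type moved with DOX as well. All 3 tested collecting duct markers were called lower at 6 days, against 11.6% of all tested genes. The log2 fold changes were -1.48 ± 0.12 for *Scnn1a*, -0.97 ± 0.16 for *Gata3* and -1.44 ± 0.39 for *Hsd11b2* (adjusted p up to 0.0123, edgeR). *Hsd11b2* was near the floor, at 0.678 TPM on average in DMSO and at most 0.847 CPM in any DOX-treated library. It passed the filter of 1 CPM only through DMSO-treated libraries, so its call adds no support. The summed TPM of the 10 markers was 6.93 to 10.2 in DMSO_6D and 3.31 to 5.08 in DOX_6D. Of 6 epithelial markers 3 were called lower at 6 days, with summed TPM of 2327 to 2586 in DMSO_6D and 1590.0 to 1799 in DOX_6D. At 3 days the summed epithelial TPM was 2125 to 2359 in DMSO and 1570.0 to 1820.0 in DOX. *Krt18* and *Krt8* weigh most in this sum, at 889 and 640 TPM on average in DMSO. On counts, 2 of the 6 were called lower at 3 days, *Cdh1* (-0.47) and *Krt8* (-0.48), against 7.22% of all tested genes. *Cldn4* (-0.36), *Krt18* (-0.18), *Epcam* (-0.10) and *Cldn7* (0.05) were not called at 3 days. Markers of fibroblasts (at most 1.15 TPM summed over 3 genes), leukocytes (at most 0.381 TPM over 2) and endothelium (at most 0.83 TPM over 2) were near 0 in every library. The summed proximal tubule markers ran from 2.05 to 18.7 TPM. What part these shifts have in the carrier values was not tested.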

How the data were processed

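Poly(A) RNA of mIMCD3 cells was sequenced by the authors, who aligned reads with STAR to GRCm38 and quantified transcripts with salmon. The authors deposited an estimated count per gene and library, not normalized, and TPM, in which transcript length is taken into account. No reads were processed again. Whether strand was used in counting overlapping genes is not given in the sources used here.

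After rounding the estimated counts, only genes that reached 1 CPM in 4 or more libraries were retained. TMM scaling and a quasi-likelihood fit with robust estimation, with a mean for each of the 4 groups, were done in edgeR 4.0.16 (R 4.3.3). DOX effects and time in DMSO were tested by glmTreat with a fold of 1.2, and the difference between DOX effects by glmQLFTest. P-values are two-sided and adjusted by Benjamini-Hochberg over 13234 genes, with 0.05 as the limit. The SE is the size of the log2 fold change over the square root of its F statistic, and CPM is given after TMM scaling. TPM levels and ratios had no test.

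Alternatives used RLE scaling, DESeq2 1.42.0, limma 3.58.1 on TPM, other thresholds and filters, the replicate block, a length and GC offset, and left-out libraries. Code was tested on simulated data. Carriers, lists and roles were chosen with earlier results of these data known. Carriers called in any DOX comparison and the 5 highest in DMSO are named, as are, from the other lists, the 4 called genes with the largest change at 6 days. *Got2* and genes without a call were named after their values were seen. For 1 carrier no single values are reported here, and the plots leave it out. Positions and overlaps came from GENCODE M21, and promoter sequences from RefSeq (GRCm38.p6).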

Additional observations from a re-analysis of the deposited data

Results flagged for a closer look

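In 4 of 108 groups of 4 libraries examined, 1 library lay far from the other 3 by Dixon's criterion (chance gives about 1 in 20). *Slc25a28* was at 44.0 CPM in replicate 4 of DOX_3D, with 49.0 to 49.4 CPM in the others. *Slc25a33* was at 15.7 CPM in replicate 2 of DMSO_3D, with 13.6 to 13.9 CPM in the others. *Slc25a5* was at 256.7 CPM in replicate 1 of DOX_3D, with 292 to 296 CPM in the others, and *Me1* was at 81.6 CPM in replicate 1 of DMSO_6D, with 91.4 to 93.2 CPM in the others.

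The DOX effect differed between 6 and 3 days, by edgeR's test of the difference, for *Slc25a37* (0.40 on the log2 scale, adjusted p = 0.00116), *Slc25a22* (0.40, adjusted p = 0.0144), *Slc25a28* (0.34, adjusted p = 0.0403) and *Slc25a14* (-0.55, adjusted p = 0.0433). Of the genes named from the other lists, it differed for *Mdh1* (-0.42, adjusted p = 0.00285), *Mtch2* (-0.33, adjusted p = 0.0114), *Smdt1* (-0.45, adjusted p = 0.0129) and *Mcub* (-0.48, adjusted p = 0.0278).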

How the results depend on the processing

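At 3 days 4 carriers were called, and 3 to 6 under 28 of 29 alternatives. Without a fold threshold 18 of 40 were called at 3 days and 16 at 6 days (9 with it), beside 5982 and 6702 of 13234 tested genes. With limma 3 were called at 6 days on log2(TPM + 1) and 4 on log2(TPM + 0.1), and 0 for the difference between times on both (9 and 8 with an unadjusted p under 0.05). For that difference, 4 in edgeR, a threshold of 1.2 gave 0 (3 with an unadjusted p under 0.05) and the length and GC offset 7. Leaving out each library in turn gave 4 to 6 carriers at 3 days, 9 at 6 days, and 2 to 8 for the difference: 8 without replicate 1 of DOX_3D, and 2 without replicate 2 or 4 of DMSO_3D, 3 or 4 of DOX_3D, 2 or 3 of DMSO_6D, or 3 or 4 of DOX_6D. Without the 2 libraries that stood apart by chi-square, an alternative added after seeing the data, the difference was called for 9. Under the replicate block the counts were 4, 9 and 2, and the block changed no other count of carriers by over 1.5 times. For libraries with the same number, the correlation of their deviations within groups ran from -0.43 to 0.18. Whether such libraries shared a batch was not tested. Between times in DMSO 0 were called under every alternative.

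*Slc25a37* at 3 days, 0.0001 on the log2 scale, changed sign with limma (-0.1782 and -0.1905 for the 2 pseudocounts), with 1 CPM in all libraries (-0.0122), without the filter (-0.0033), under the replicate block (-0.0002), without the 2 libraries (-0.0089), and with single libraries left out (-0.0167 to 0.0129). The cause of these changes was not tested. Over all genes the calls at 3 and 6 days were 1658 and 2856, with DESeq2 1019 and 1962, with limma on log2(TPM + 1) 673 and 1266 and on log2(TPM + 0.1) 873 and 1491, without a threshold 5982 and 6702, and at 3 days without the 2 libraries 2517. For the difference they were 2252, with limma 442 and 410, with a threshold of 1.2 183, and without the 2 libraries 4385. Depth limits the carriers with few counts, such as *Slc25a27* and *Slc25a14*.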
